A study of Homo sapiens with 16 samples.

Results

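LINC02593, SAMD11, NOC2L, KLHL17, PLEKHN1 and HES4 are neighbouring genes near the start of chromosome 1. They were taken by symbol from a table of estimated counts, 6 of its 40663 genes, and their levels were followed through 16 libraries in 4 groups of 4. The genes were chosen by the values of SAMD11 and LINC02593 in belinostat and vehicle libraries, together with their position, and the neighbours were taken for their place beside them. The members' values in every comparison that uses belinostat libraries are therefore given as a description, with no test. All 6 were measured in every library, with 9 to 1497 estimated counts, and all 6 entered the tests that are given.

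The libraries came from Ccd18-Co, an established fibroblast line from human colon. In 3 groups the cells had gone through 3 pulses of a mix of IL-1B at 0.1 ng/ml with TNF, IL-17A and OSM, each at 10 ng/ml. A pulse meant 72 h in the mix without serum, then 96 h to recover. The cells rested for 1 week and then spent 5 days in DMSO, in belinostat at 250 nM or in GSK-J4 at 10 µM. Belinostat inhibits histone deacetylases, and GSK-J4 inhibits the enzymes that remove methyl groups from lysine 27 of histone H3. These groups are called vehicle, belinostat and GSK-J4 here. The unstimulated group received DMSO and no cytokines by its titles. Doses and replicates are those of the labels. The text of the study names another belinostat concentration for its assays, in places another IL-1B concentration, and fewer replicates for RNA-seq, and these differences could not be settled from the counts. RNA was collected 2 weeks after the compounds were withdrawn, so the measurements concern what persisted after exposure. All libraries derive from 1 cell line, and the labels do not say that the replicates were independent experiments, so p-values measure the spread between these libraries only.

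Each library held 14.4 to 19.5 M estimated counts. Belinostat replicate 17 stood apart from the rest of its group, with a mean squared deviation of 26.5 to 31.6 in units of sampling noise from each of the others, which were at 3.69 to 4.70 among themselves. Unstimulated replicates 1 and 3 were at 31.3 from each other. All 9 fibroblast markers were measured, led by DCN, and their summed normalized count lay between 489100 and 515600 in unstimulated, 502000 and 536300 in vehicle, 431600 and 515300 in belinostat, and 538900 and 574800 in GSK-J4 libraries. The 5 epithelial markers summed to at most 18.69, with KRT20 at 0, the 3 glial and neuronal markers to at most 2.03, with SOX10 at 0, and the 3 endothelial markers to at most 41.72. The 4 immune markers summed to 33.73 to 108.1 in unstimulated, 81.97 to 186.3 in vehicle, 91.58 to 254.9 in belinostat and 79.86 to 157.2 in GSK-J4 libraries. CD14 made up most of it and CD3E was at 0. Whether these shifts have a part in the results was not tested. In bulk RNA, fewer cells expressing a gene and less of its RNA per cell cannot be told apart.

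SAMD11 encodes a nuclear protein with a sterile alpha motif (SAM) domain, a fold through which proteins form chains, and it is best known from photoreceptors, where it works with polycomb repressor complexes. LINC02593 is a long non-coding RNA with no established role. NOC2L is a nucleolar protein that takes part in assembly of the large ribosomal subunit, binds p53 and inhibits histone acetyltransferases. KLHL17 is a kelch protein that binds actin and CUL3, PLEKHN1 is a phospholipid-binding protein with pleckstrin homology domains, and HES4 is a basic helix-loop-helix repressor of the family that responds to Notch. Histone deacetylase inhibitors raise acetylation at many loci, and GSK-J4 favours retention of the repressive methyl mark that polycomb complexes deposit.

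The 6 genes span 83.3 kb of GRCh38. LINC02593 (ENSG00000223764.2, chr1:916865-921016) is on the minus strand, and SAMD11 (ENSG00000187634.13, chr1:923923-944575) lies to its right on the plus strand, so the genes stand head to head. Their annotated ends are 2906 bases apart, and the starts of their canonical transcripts are 4230 bases apart. NOC2L (ENSG00000188976.11, chr1:944203-959309, minus strand) meets SAMD11 tail to tail, with 373 bases of shared exon. KLHL17 (ENSG00000187961.15, chr1:960584-965719, plus strand) begins 1274 bases past the start of NOC2L. PLEKHN1 (ENSG00000187583.11, chr1:966482-975865, plus strand) follows after 762 bases, and HES4 (ENSG00000188290.11, chr1:998962-1000172, minus strand) lies 23096 bases further on. PERM1 (chr1:975198-982117, minus strand), which is not one of the 6 genes, overlaps the end of PLEKHN1 and reaches into this gap.

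The stretches upstream of SAMD11 and LINC02593 are shown because these genes moved together across the libraries. That movement is not independent of their choice by belinostat and vehicle values. All 6 genes were matched in the RefSeq promoter table of GRCh38.p14. Each sequence holds the 250 bases before a transcript start, read 5′ to 3′ on the strand of its gene, with CpG dinucleotides in capitals. SAMD11 has 15 annotated transcripts, so both the RefSeq start and the start of its canonical GENCODE transcript are given. The first sequence is chr1:919693-919942 on the minus strand, the second chr1:925481-925730 and the third chr1:923673-923922, both on the plus strand, the third read from hg38.
LINC02593, RefSeq start: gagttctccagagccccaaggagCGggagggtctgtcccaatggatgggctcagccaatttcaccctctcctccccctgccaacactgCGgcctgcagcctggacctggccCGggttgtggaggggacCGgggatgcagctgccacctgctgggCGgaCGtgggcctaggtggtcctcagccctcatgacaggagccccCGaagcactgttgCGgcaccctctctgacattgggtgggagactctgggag
SAMD11, RefSeq start: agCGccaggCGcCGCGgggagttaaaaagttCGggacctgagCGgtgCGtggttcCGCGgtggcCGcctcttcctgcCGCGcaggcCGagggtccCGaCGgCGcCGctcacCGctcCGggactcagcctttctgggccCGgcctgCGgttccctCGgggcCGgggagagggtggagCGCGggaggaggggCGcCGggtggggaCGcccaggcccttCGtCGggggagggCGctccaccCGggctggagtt
SAMD11, canonical start: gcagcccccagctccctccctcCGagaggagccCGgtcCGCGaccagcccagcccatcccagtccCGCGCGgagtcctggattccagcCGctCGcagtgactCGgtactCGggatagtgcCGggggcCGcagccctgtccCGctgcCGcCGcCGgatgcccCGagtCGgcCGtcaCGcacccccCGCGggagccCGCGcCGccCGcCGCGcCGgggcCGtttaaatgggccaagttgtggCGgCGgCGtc

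The windows differ in CpG content. The SAMD11 windows hold 32 CpG at the RefSeq start and 34 at the canonical start, with 75.6% and 76.0% GC. The LINC02593 window holds 8 CpG and 66.0% GC, and all of it lies in an exon of another LINC02593 transcript. Over 35116 RefSeq promoters the median was 11 CpG and 58.0% GC. More CpG than in the LINC02593 window was found in 54.1% of them, and more than in the SAMD11 windows in 8.15% and 5.80%. The windows of NOC2L, KLHL17, PLEKHN1 and HES4 held 39, 25, 15 and 35 CpG. Searched on both strands, CCAAT occurred 3 times in the LINC02593 window, not in either SAMD11 window, and in 32% of all promoters. GGGCGG occurred once each in the LINC02593 and canonical SAMD11 windows and in 42.6% of promoters. None of these 3 windows held TATAAA, which 10.7% of promoters hold. The AP-1 motif TGANTCA, present in 6.57% of promoters, and the E-box motif CACGTG, present in 6.34%, were also missing from them. These letters mark matches in the windows, not sites shown to be used.

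The group means of LINC02593 and SAMD11 were highest in the belinostat libraries and lowest in the GSK-J4 libraries. Values are normalized counts, estimated counts divided by the size factor of the library. LINC02593 stood at 604.3, 537.3, 465.0 and 690.5 in belinostat replicates 17 to 20 and at 195.1, 236.7, 205.9 and 215.8 in vehicle replicates 13 to 16. It stood at 237.4, 286.3, 344.4 and 292.9 in unstimulated replicates 1 to 4 and at 152.6, 105.5, 141.2 and 136.3 in GSK-J4 replicates 21 to 24. No neighbouring groups in this order overlapped, although the lowest unstimulated library (237.4) and the highest vehicle library (236.7) nearly touched. The means were 574.3 ± 96.1 for belinostat, 290.3 ± 43.8 for unstimulated, 213.4 ± 17.7 for vehicle and 133.9 ± 20.1 for GSK-J4 (SD, n = 4).

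SAMD11 followed the same order of group means. Its normalized counts were 549.9, 448.1, 322.6 and 590.8 in belinostat replicates 17 to 20 and 114.2, 184.0, 148.1 and 171.5 in vehicle replicates 13 to 16. They were 240.3, 206.2, 191.8 and 204.1 in unstimulated replicates 1 to 4 and 139.3, 119.8, 131.1 and 145.7 in GSK-J4 replicates 21 to 24. Belinostat libraries lay above all others and unstimulated libraries above vehicle, while vehicle and GSK-J4 libraries overlapped. The means were 477.9 ± 120 for belinostat, 210.6 ± 20.8 for unstimulated, 154.5 ± 30.7 for vehicle and 134.0 ± 11.2 for GSK-J4 (SD, n = 4). Belinostat replicate 19 was the lowest of its group for both genes, and replicate 20 the highest.

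NOC2L lies between SAMD11 and KLHL17 on the chromosome. Its group means ran from 1204 ± 27.5 normalized counts in GSK-J4 to 1281 ± 88.6 in unstimulated libraries (SD, n = 4), with single libraries between 1145 and 1429. The groups overlapped throughout. KLHL17 stood at 264.4, 278.3, 300.9 and 300.7 in unstimulated, 272.2, 265.4, 213.3 and 279.4 in vehicle, 300.7, 246.7, 220.1 and 249.2 in belinostat, and 207.5, 226.3, 217.4 and 219.1 in GSK-J4 libraries. The GSK-J4 libraries lay below every unstimulated library and overlapped vehicle and belinostat.

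HES4 stood at 139.9, 142.2, 155.4 and 209.9 in unstimulated, 131.3, 126.5, 120.2 and 126.3 in vehicle, 122.2, 146.5, 124.1 and 135.0 in belinostat, and 135.3, 152.6, 122.9 and 119.5 normalized counts in GSK-J4 libraries. The unstimulated group was the highest, and vehicle lay wholly below it, while the other groups overlapped. PLEKHN1 was near the limit of measurement, with 9 to 33 estimated counts in a library. Its means were 16.3 ± 3.21 in unstimulated, 19.7 ± 3.22 in vehicle, 23.7 ± 9.72 in belinostat and 17.4 ± 3.08 normalized counts in GSK-J4 libraries (SD, n = 4), and all groups overlapped.

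**Figure D1:**
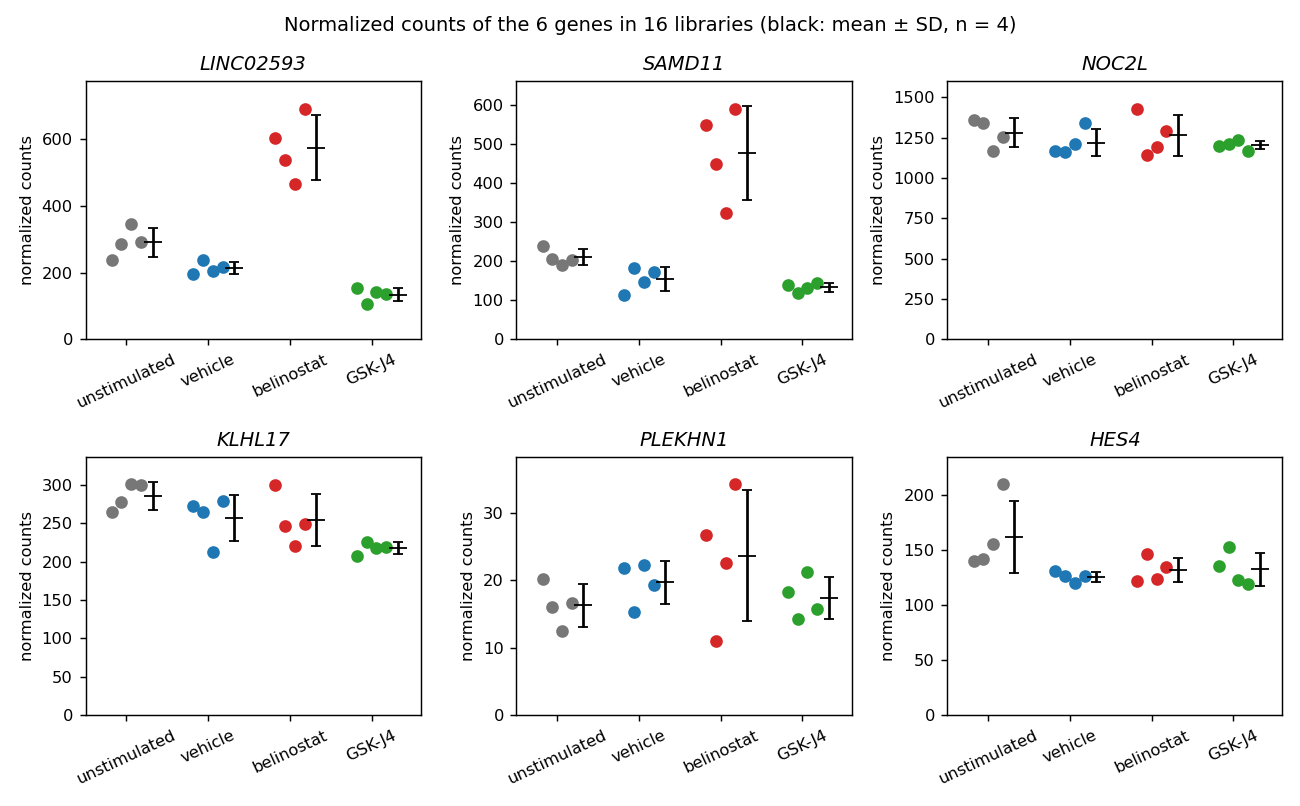
Normalized counts (vertical axes, linear from 0) of the 6 genes in each library, by group. Points are libraries and black marks are the mean ± SD of 4 libraries. For LINC02593 and SAMD11 the belinostat libraries (465.0 to 690.5 and 322.6 to 590.8) lie above all other libraries, while the groups of NOC2L and PLEKHN1 overlap.

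Levels of different genes can be compared only per length. Per kb of the canonical transcript, NOC2L was the most abundant of the 6 with a mean of 450.4 normalized counts per kb over the 16 libraries. LINC02593 followed at 218.1, then HES4 at 156.1, KLHL17 at 98.9, SAMD11 at 70.5 and PLEKHN1 at 6.07. In belinostat libraries LINC02593 reached 413.4 ± 69.2 normalized counts per kb, against 458.3 ± 45.6 for NOC2L (SD, n = 4), with overlapping errors. The order rests on the canonical transcript lengths, and which isoforms the cells used is not known. The estimated counts of SAMD11, NOC2L and KLHL17 had decimals in all 16 libraries, as when reads are shared with transcripts outside the gene. Those of LINC02593, PLEKHN1 and HES4 were whole to within 1e-06. KLHL17 shares no exon bases with NOC2L or PLEKHN1, so what shares its reads is not known. Reads in the 373 bases that SAMD11 and NOC2L share cannot be told apart without strand, and the kit as named is not stated to keep it.

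Belinostat against vehicle is the comparison by which the genes were chosen. LINC02593 was 2.69-fold higher in belinostat (log2 1.43, SE 0.14) and SAMD11 3.10-fold (log2 1.63, SE 0.17). Their libraries lay wholly above those of vehicle, as for 5.38% of all genes tested in this comparison, a share from which nothing is read here. The other members had log2 differences of 0.05 (SE 0.07) for NOC2L, -0.02 (SE 0.11) for KLHL17, 0.06 (SE 0.14) for HES4 and 0.28 (SE 0.33) for PLEKHN1. The groups of all these genes overlapped. Without belinostat replicate 17, LINC02593 was at 1.40, SAMD11 at 1.56, NOC2L at -0.01, KLHL17 at -0.11, PLEKHN1 at 0.22 and HES4 at 0.10 on the log2 scale. Against unstimulated libraries, belinostat libraries stood 0.98 (SE 0.14) higher for LINC02593 and 1.18 (SE 0.17) for SAMD11 on the log2 scale, and the libraries of both lay wholly above the unstimulated ones, as for 6.62% of all genes. Against GSK-J4 the differences were 2.10 (SE 0.14) and 1.84 (SE 0.18), again without overlap, as for 8.38% of all genes.

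Vehicle against unstimulated cells asked what the cytokine pulses had left in the cells weeks later. The titles give DMSO to the unstimulated group while its columns read none. Whether DMSO differed too is therefore not settled, here or in other comparisons with that group. LINC02593 and SAMD11 each stood at 73.4% of the unstimulated level in vehicle and HES4 at 77.9%, but DESeq2 called 0 of the 6 genes at an adjusted p under 0.05, where 1.74% of all tested genes were called. The log2 differences were -0.45 for LINC02593 (SE 0.14, DESeq2 adjusted p 0.082), -0.45 for SAMD11 (SE 0.18, DESeq2 adjusted p 0.274) and -0.36 for HES4 (SE 0.14, DESeq2 adjusted p 0.252). These 3 genes had an unadjusted p under 0.05 and vehicle libraries wholly below the unstimulated ones, a separation found for 3.13% of all genes, and edgeR also called 0. The 95% intervals of the log2 difference were -0.72 to -0.17 for LINC02593, -0.79 to -0.10 for SAMD11 and -0.63 to -0.09 for HES4. The median over the 6 genes was -0.26, beside -0.005 over all genes tested. LINC02593 was called without unstimulated replicate 1 (-0.53, DESeq2 adjusted p 0.0186) or without belinostat replicate 19 (-0.45, DESeq2 adjusted p 0.0446). The vehicle libraries also entered the comparison that chose the genes, so these differences are not independent of that choice.

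GSK-J4 against vehicle asked what the demethylase inhibitor changed in cytokine-pulsed cells. LINC02593 fell to 62.8% of its vehicle level, a log2 difference of -0.67 (SE 0.15, DESeq2 adjusted p 0.00131). The GSK-J4 libraries lay wholly below those of vehicle for this member alone, and for 4.52% of all genes. It was the only member called in this comparison, 1 of 6, where 1.92% of all tested genes were called and 0.818% were called lower. Its edgeR adjusted p was 0.0393. SAMD11 differed by -0.21 (SE 0.18, DESeq2 adjusted p 0.814), with a 95% interval from -0.56 to 0.15. KLHL17 differed by -0.24 (SE 0.11, DESeq2 adjusted p 0.381) with overlapping groups. NOC2L, PLEKHN1 and HES4 differed by -0.02, -0.18 and 0.07 on the log2 scale, none called. The median over the 6 genes was -0.19, beside -0.002 over all genes tested. This comparison too shares the vehicle libraries with the one that chose the genes.

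GSK-J4 against unstimulated cells uses neither of the groups by which the genes were chosen, and it joins the cytokine pulses and the compound in 1 difference. The choice was still made with earlier results of these data known, so the comparison is not wholly independent of it. Here 3 of the 6 genes fell and none rose, where 5.55% of all tested genes were called and 2.37% were called lower. LINC02593 fell to 46.1% of the unstimulated level (log2 -1.12, SE 0.15, DESeq2 adjusted p 1.66e-11). SAMD11 fell to 63.6% (log2 -0.65, SE 0.18, DESeq2 adjusted p 0.00846). KLHL17, which lies beyond NOC2L, fell to 76.0% (log2 -0.40, SE 0.11, DESeq2 adjusted p 0.00947). The GSK-J4 libraries of these 3 genes lay wholly below the unstimulated ones, as for 5.24% of all genes, and edgeR called the same genes with adjusted p of 0.000137, 0.0341 and 0.0207. Without unstimulated replicate 4, KLHL17 was at -0.37 with a DESeq2 adjusted p of 0.0536 and was no longer called.

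The other members were not called against unstimulated cells. HES4 differed by -0.29 (SE 0.14, DESeq2 adjusted p 0.298), NOC2L by -0.09 (SE 0.07, DESeq2 adjusted p 0.678) and PLEKHN1 by 0.10 (SE 0.35, DESeq2 adjusted p 0.954). NOC2L, whose own start is 1274 bases from that of KLHL17, had a 95% interval of -0.23 to 0.06 on the log2 scale. The interval of KLHL17 ran from -0.61 to -0.18. PLEKHN1 had so few counts that its interval, -0.58 to 0.77, holds changes of either direction.

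**Figure D2:**
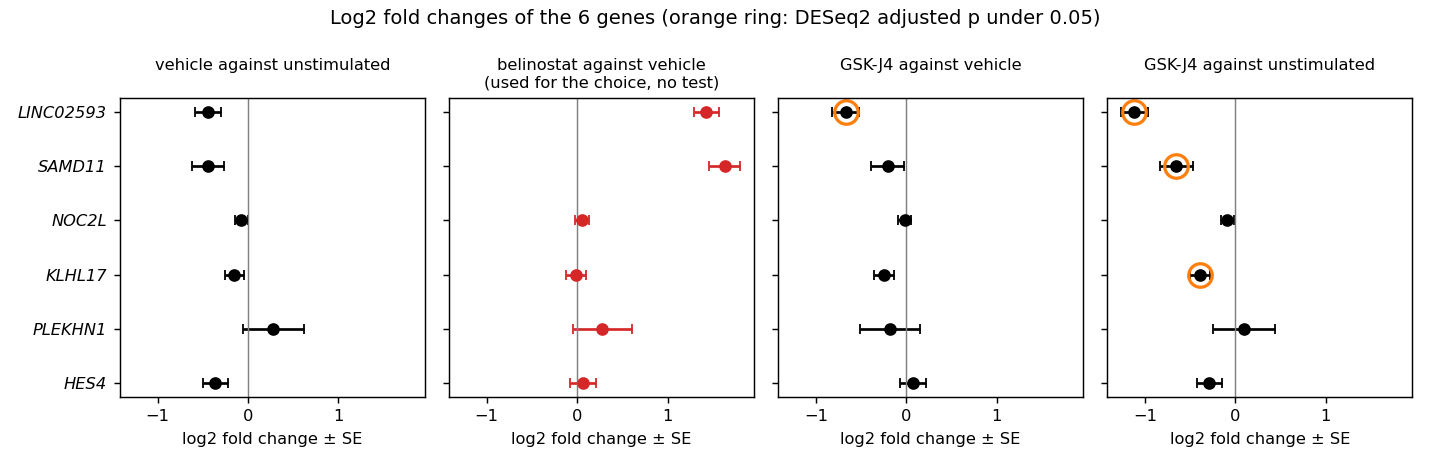
Log2 fold changes (horizontal axes) with their standard errors for the 6 genes in 4 comparisons, with 4 libraries a group. LINC02593 and SAMD11 stand at 1.43 and 1.63 in belinostat against vehicle, which has no test, and orange rings mark the genes called by DESeq2, 1 in GSK-J4 against vehicle and 3 in GSK-J4 against unstimulated.

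The head-to-head pair can also be read as a ratio within each library, in which the scaling to library size cancels. LINC02593 exceeded SAMD11 in counts in 13 of 16 libraries. These counts are not corrected for length, and the canonical transcripts have 1389 bases for LINC02593 and 3465 for SAMD11. A ratio near 1 is therefore not an equal level, and the ratio serves only to compare libraries. The ratio of LINC02593 to SAMD11 was 0.988, 1.39, 1.8 and 1.44 in unstimulated, 1.71, 1.29, 1.39 and 1.26 in vehicle, 1.10, 1.20, 1.44 and 1.17 in belinostat, and 1.09, 0.880, 1.08 and 0.935 in GSK-J4 libraries. Every vehicle library lay above every GSK-J4 library. The group means of the ratio were 1.40 ± 0.331, 1.41 ± 0.206, 1.23 ± 0.149 and 0.997 ± 0.106 (SD, n = 4).

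The log2 ratio was 0.50 lower in GSK-J4 than in vehicle (-0.496), with an exact two-sided permutation p of 0.0286, the smallest that 4 against 4 libraries allow. Adjusted over the 3 comparisons made, the exact permutation p was 0.0858, above the threshold of 0.05. With only 1 of the 3 at the smallest possible p, this adjustment cannot reach 0.05, so nothing is read from it. Against unstimulated libraries the difference was -0.47 (exact permutation p 0.0857, adjusted 0.129), and between vehicle and unstimulated libraries it was 0.03 (exact permutation p 0.943). With any 1 library left out, the exact permutation p of GSK-J4 against vehicle was 0.0571, the smallest that 3 against 4 libraries allow. The ratio is built from the pair chosen by belinostat and vehicle values, so the comparisons with vehicle are not independent of that choice.

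**Figure D3:**
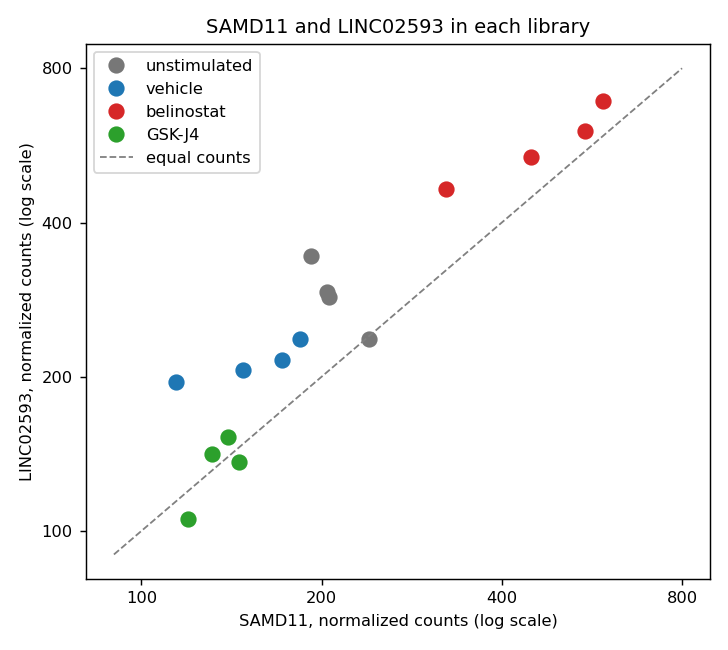
Normalized counts of SAMD11 (horizontal) and LINC02593 (vertical) in each of the 16 libraries, on log axes, with the dashed line at equal counts, not corrected for transcript length. Belinostat libraries stand apart at the upper right and GSK-J4 libraries lie at the lower left around the line, with ratios of 0.880 to 1.09, while the vehicle libraries lie above it with ratios of 1.26 to 1.71.

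Genes with the most similar pattern were sought over all 11740 genes with a mean of at least 50 normalized counts. Likeness was the root mean square difference between log2(normalized count + 1) profiles over the 16 libraries, each centred on its mean. It is a description, since the profiles share the libraries and the belinostat group dominates them. SAMD11 and LINC02593 were chosen by their belinostat and vehicle values. Their likeness to each other, and the distance of the other members, follow in part from that choice. SAMD11 was the gene most like LINC02593, at 0.281 log2 units, and LINC02593 was the second most like SAMD11. The first was NOG, an antagonist of bone morphogenetic proteins on chromosome 17, at 0.278, with means of 90.7 ± 13.3, 85.2 ± 16.3, 199.3 ± 63.9 and 61.6 ± 8.58 normalized counts in unstimulated, vehicle, belinostat and GSK-J4 libraries (SD, n = 4).

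CXCL14, a chemokine of resting mucosa, followed for SAMD11 at 0.307, then PTGES, the terminal synthase of prostaglandin E2, at 0.333 and CORO2A, an actin-binding protein, at 0.338. For LINC02593 the next were ATRNL1 at 0.313, NPR3, the clearance receptor for natriuretic peptides, at 0.317, NOG at 0.348 and LMCD1, a LIM domain protein, at 0.350. None of these genes is on chromosome 1. The other neighbours were far from the pair in this order. KLHL17 ranked 2025 for SAMD11 and 1128 for LINC02593, NOC2L ranked 2133 and 3091, and HES4 ranked 7222 and 5611, while PLEKHN1 was under the minimum.

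The wider surroundings held 95 other genes of the table that start in the first 2 Mb of chromosome 1. Of these, 7 are pseudogene copies of mitochondrial genes between positions 629062 and 634922, which held between 0.848% and 1.70% of a library's counts. The table has no gene of the mitochondrial genome itself, and the near-identical copies make the origin of these reads uncertain. In belinostat against vehicle, 49 of the 95 were tested, 3 were higher and 1 was lower, where 6.26% of all genes were called. The 3 higher were such copies, MTND2P28 (log2 0.36, SE 0.09, DESeq2 adjusted p 0.00231), MTATP8P1 (0.40, SE 0.09, DESeq2 adjusted p 0.000965) and MTATP6P1 (0.35, SE 0.10, DESeq2 adjusted p 0.0114). MTATP6P1 was not called by edgeR (adjusted p 0.0521) or without vehicle replicate 15 (0.32, DESeq2 adjusted p 0.0642), belinostat replicate 19 (0.33, 0.0505) or belinostat replicate 20 (0.31, 0.0792).

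Without the copies, VWA1 was the only one of 42 tested neighbours called in belinostat against vehicle. VWA1, an extracellular matrix protein with a von Willebrand factor A domain, had 126.3 ± 9.14 normalized counts in vehicle and 84.7 ± 15.9 in belinostat libraries (SD, n = 4). It fell by 0.57 (SE 0.14, DESeq2 adjusted p 0.00264), opposite in direction to SAMD11 and LINC02593. The nearest measured genes beyond HES4 were not called. ISG15, an interferon-induced ubiquitin-like protein, had 11.01 ± 5.51 normalized counts in belinostat and 8.47 ± 2.77 in vehicle libraries (SD, n = 4). AGRN, the basement membrane proteoglycan agrin, had 5540 ± 284 and 5584 ± 693 (SD, n = 4), a log2 difference of -0.01 (SE 0.10). PERM1, between PLEKHN1 and HES4, had 4.714 ± 1.485 in belinostat and 2.583 ± 0.446 in vehicle libraries (SD, n = 4), too low for an adjusted p. The belinostat libraries of PERM1 lay wholly above those of vehicle, at counts near the limit of measurement. On the side of LINC02593, FAM41C had 1.18 ± 1.73 in belinostat and 3.77 ± 1.74 in vehicle libraries (SD, n = 4), also too low for an adjusted p. LINC01128 differed by -0.12 (SE 0.07, DESeq2 adjusted p 0.433) and was not called. Its belinostat libraries lay wholly below those of vehicle, as for 4 of the 49 neighbours tested.

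The copies also made up all the calls among neighbours in vehicle against unstimulated, where 5 of 54 were lower (9.26%, beside 1.74% of all genes called), and in GSK-J4 against vehicle, where 3 of 43 were lower (6.98%, beside 1.92%) and edgeR called 0. Without them, 0 of 47 and 0 of 36 were called by DESeq2, with 1 and 3 genes at an unadjusted p under 0.05, and edgeR called 0 in both. In GSK-J4 against unstimulated, 1 neighbour of 56 was higher and 9 were lower (17.9%, beside 5.55% of all genes). Without the copies, 3 of 49 were called (6.12%). These 3 were named after their values were seen. AGRN rose by 0.34 (SE 0.10, DESeq2 adjusted p 0.0153) and was lost in edgeR (adjusted p 0.0519) and without unstimulated replicate 1 (0.28), unstimulated replicate 2 (0.31) or GSK-J4 replicate 22 (0.24). MIB2, a ubiquitin ligase of Notch ligands, fell by 0.18 (SE 0.05, DESeq2 adjusted p 0.0212) and was lost without unstimulated replicate 3 or 4 or GSK-J4 replicate 21, 22 or 24. MMP23A, which has the near-identical copy MMP23B, was at 0 in the 4 GSK-J4 libraries and at 9.69 ± 9.79 normalized counts in unstimulated ones (SD, n = 4). In belinostat against GSK-J4, where 12.2% of all genes were called, 7 of 51 neighbours were higher and 1 was lower. Without the copies, SCNN1D, a subunit of a sodium channel named after its value was seen, was higher by 0.31 (SE 0.11, DESeq2 adjusted p 0.0464) and VWA1 lower by 0.47 (SE 0.15, DESeq2 adjusted p 0.0147) among 44.

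**Figure D4:**
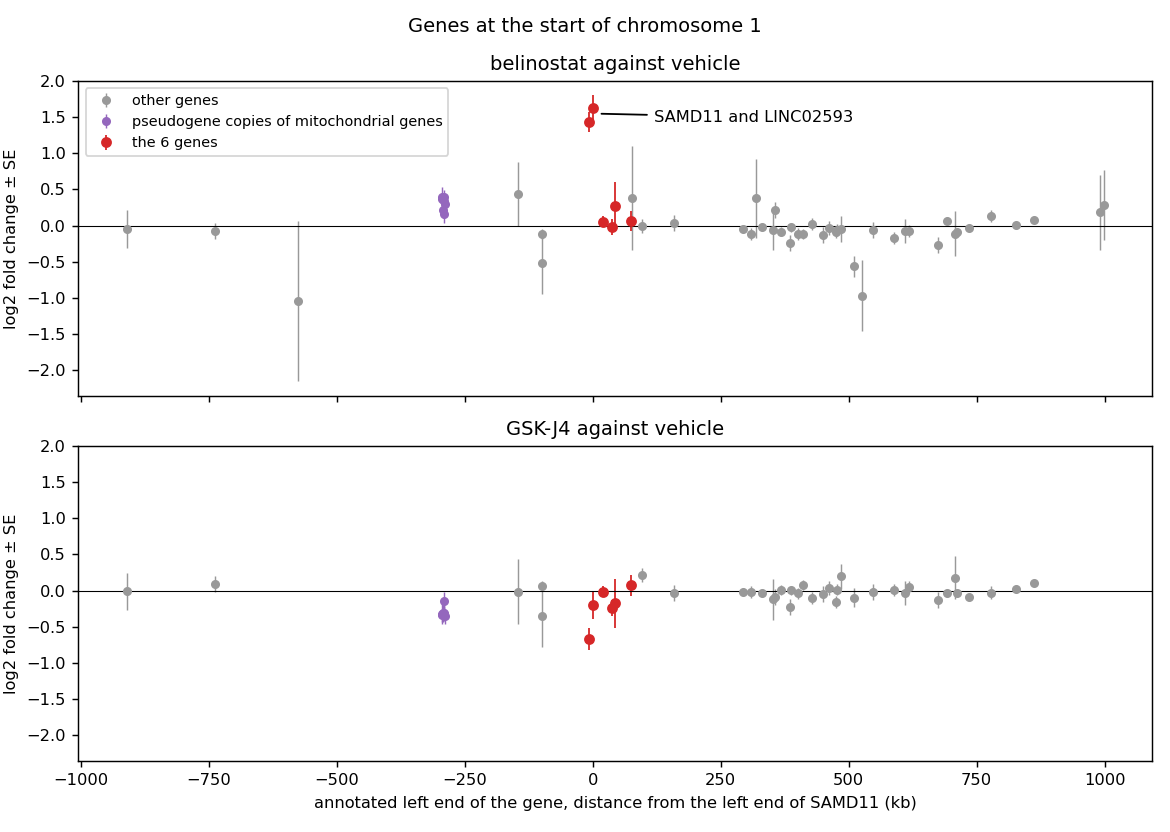
Log2 fold changes with standard errors (vertical axes) of the tested genes in the first 2 Mb of chromosome 1, by the distance of their left end from that of SAMD11 in kb (horizontal axis), for belinostat and GSK-J4 each against vehicle. In the upper panel, the comparison by which they were chosen, SAMD11 at 1.63 and LINC02593 at 1.43 lie above every other gene drawn. In the lower panel LINC02593 lies lowest at -0.67. Neighbours too low for an adjusted p are not drawn.

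Genes that share a role with the members were counted from lists. Of 26 polycomb repressive complex 1 and SAM domain genes, 23 were tested in belinostat against vehicle, 1 was higher and 2 were lower, 13.0% against 6.26% of all genes. L3MBTL3, a reader of methylated lysine with a SAM domain, had 594.6 ± 56.0 normalized counts in vehicle and 876.4 ± 51.8 in belinostat libraries (SD, n = 4) and rose by 0.56 (SE 0.08, DESeq2 adjusted p 6.54e-11). SFMBT2, another SAM domain protein of this family, fell by 0.50 on the log2 scale, from 389.5 ± 31.2 to 275.8 ± 19.4 (SD, n = 4; SE of the difference 0.10, DESeq2 adjusted p 1.36e-05). PHC2, a SAM domain subunit of the complex, fell by 0.16 (SE 0.04, DESeq2 adjusted p 0.00804) and was lost without vehicle replicate 16 (DESeq2 adjusted p 0.0504) or belinostat replicate 20 (DESeq2 adjusted p 0.0569). The median over the list was 0.01, beside 0.003 over all genes.

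In the comparisons open to the members, the same list gave 1 call in 24 tested genes, 0 in 23 and 4 in 24, or 4.17%, 0% and 16.7%, beside 1.74%, 1.92% and 5.55% of all genes. SFMBT2 was the only gene called in vehicle against unstimulated, higher by 0.89 (SE 0.10, DESeq2 adjusted p 8.53e-17). None of 23 was called in GSK-J4 against vehicle, with 3 at an unadjusted p under 0.05 and 0 called by edgeR. In GSK-J4 against unstimulated, 1 of 24 was higher, SFMBT2 by 0.97 (SE 0.10), and 3 were lower. L3MBTL3 fell by 0.43 (SE 0.08), CBX8 by 0.38 (SE 0.11) and CBX7 by 0.30 (SE 0.09), and both CBX genes were named after their values were seen. In that comparison L3MBTL3 moved in the direction of SAMD11 and LINC02593, and SFMBT2 in the opposite direction. In belinostat against GSK-J4, where 17.4% of the list and 12.2% of all genes were called, 1 of 23 was higher, L3MBTL3 by 0.76 (SE 0.08), and 3 were lower, SFMBT2 by 0.58 (SE 0.10), PHC2 by 0.20 (SE 0.04) and RING1, named after its value was seen, by 0.17 (SE 0.06).

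None of 10 nucleolar genes of the NOC2L pathway was called by DESeq2 or edgeR in any of 5 comparisons, with at most 1 at an unadjusted p under 0.05. The HES and HEY repressors related to HES4 were mostly too low to test, with 2 to 4 of 10 tested, and none was called by DESeq2 or edgeR, with at most 1 at an unadjusted p under 0.05. Of 12 CUL3 kelch adaptors akin to KLHL17, none was called in belinostat against vehicle, with 3 at an unadjusted p under 0.05 and 0 by edgeR. In GSK-J4 against unstimulated, where KLHL17 fell, 2 of the 12 fell, 16.7% beside 5.55% of all genes. These were KLHL21 by 0.30 (SE 0.06, DESeq2 adjusted p 2.64e-05) and KLHL7 by 0.16 (SE 0.05, DESeq2 adjusted p 0.0203), both named after their values were seen. KLHL21 was also the only one of 11 called in GSK-J4 against vehicle, 9.09% beside 1.92% of all genes, lower by 0.21 (SE 0.06, DESeq2 adjusted p 0.0201), and edgeR called 0 there. In vehicle against unstimulated none of 12 was called by DESeq2 or edgeR, with 1 at an unadjusted p under 0.05. In belinostat against GSK-J4, 3 of the 12 were higher, 25% beside 12.2% of all genes, KLHL21 by 0.26, KLHL2 by 0.25 and KLHL7 by 0.24.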

How the data were processed

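Bulk RNA-seq of 16 libraries was analysed. The authors deposited an estimated count for each gene symbol and library, made with kallisto 0.48.0 at default settings, after FastQC 0.11.9 and MultiQC 1.14 per the submitters' processing notes, with hg38 as the named build. The transcriptome release and the summing of transcripts to symbols are not given in the sources used here. Of the values over all genes, 28.0% had decimals. They were rounded to whole numbers here. Estimated counts depend on the transcript models, and divide reads that overlapping genes or near-identical copies share. The labels' replicate numbers were matched to the columns, and the columns of the unstimulated libraries read none where the titles read DMSO.

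The 6 genes and all lists were chosen with earlier results of these data known. DESeq2 1.42.0 (R 4.3.3) was fitted once to all 16 libraries by group, without covariates, using its own size factors and independent filtering, and p from its Wald test was adjusted by Benjamini-Hochberg over all genes tested. Members were tested only where no belinostat library entered the contrast. edgeR 4.0.16 (quasi-likelihood, TMM) was the alternative test. Other alternatives were TMM and total-count scaling, a filter of 10 counts in 4 libraries, a fit of only the 2 groups compared, leaving out each library and, added after seeing the data, removing a trend on transcript GC content and leaving out pseudogene copies of mitochondrial genes. Both tools were checked on simulated counts.

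The text names the members, the neighbours called in belinostat against vehicle, the 2 nearest measured genes past HES4, the 5 genes most like SAMD11 and LINC02593 each, and up to 4 called genes a list. PERM1, FAM41C and LINC01128 were added for their position after their values were seen. Positions are from GENCODE of GRCh38, by symbol. Between replicates, the mean squared deviation in units of sampling noise was 2.97 to 31.6 over 24 pairs, with the highest values for pairs with belinostat replicate 17 and for unstimulated replicates 1 and 3, so no library was counted as a repeat of another. Reads carry no molecular identifiers that the table shows.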

Additional observations from a re-analysis of the deposited data

Results flagged for a closer look

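LINC02593 stood out because belinostat and GSK-J4 moved it in opposite directions from the same vehicle libraries. The log2 difference from vehicle was 1.43 for belinostat and -0.67 for GSK-J4, with every belinostat library above and every GSK-J4 library below all 4 vehicle libraries. The difference between these effects was not tested, since the belinostat libraries had a part in the choice of the gene, and both contrasts share the vehicle libraries. Other genes had the same signs, among them those most like LINC02593 in pattern. These were picked by likeness over the same libraries, so their signs follow in part from that choice. SAMD11 was not called in GSK-J4 against vehicle, where its groups overlapped. The log2 differences of the like genes for belinostat and GSK-J4 were 1.63 and -0.21 for SAMD11, 0.73 and -0.82 for ATRNL1 and 1.14 and -0.64 for NPR3. They were 1.23 and -0.47 for NOG and 0.91 and -0.49 for LMCD1. Of 24 groups of 4 values, 6 genes in 4 groups, none held a library beyond Dixon's 95% critical value.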

How the results depend on the processing

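No paired analysis was possible because the groups share no replicate numbers in the labels. Of 396 alternative values of the 18 tested member differences, 388 kept their direction and their side of the threshold, and all 220 for the 10 belinostat differences moved by less than the spread between replicates. The number of members called in vehicle against unstimulated was 0 and became 1, LINC02593 with a DESeq2 adjusted p of 0.0361, in a fit of only these groups, and it ranged from 0 to 1 with 1 library left out. The signs of very small differences reversed with 1 library left out. In GSK-J4 against vehicle the ranges were -0.04 to 0.031 for NOC2L and -0.002 to 0.12 for HES4. PLEKHN1 ranged from -0.017 to 0.22 in GSK-J4 against unstimulated. In belinostat against vehicle the ranges were -0.055 to 0.074 for AGRN, -0.011 to 0.10 for NOC2L and -0.11 to 0.047 for KLHL17. The log2 ratio of LINC02593 to SAMD11 ranged from -0.13 to 0.16 in vehicle against unstimulated. Removing the GC trend took AGRN to 0.019 in belinostat against vehicle. PHC2 in belinostat against vehicle was not called in a fit of only the 2 groups (DESeq2 adjusted p 0.0535), nor MIB2 in GSK-J4 against unstimulated with the GC trend removed (-0.12, DESeq2 adjusted p 0.13).

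Without the pseudogene copies, the calls among the neighbours were 0 in place of 5 in vehicle against unstimulated, 1 in place of 4 in belinostat against vehicle, 0 in place of 3 in GSK-J4 against vehicle, 3 in place of 10 in GSK-J4 against unstimulated and 2 in place of 8 in belinostat against GSK-J4. In GSK-J4 against vehicle edgeR gave 0, and leaving out 1 library gave 0 to 6. The count was 0 when GSK-J4 replicate 21 or 23 or vehicle replicate 13 or 14 was left out, 1 when GSK-J4 replicate 24 or vehicle replicate 16 was, 5 without unstimulated replicate 3 and 6 without GSK-J4 replicate 22, and the cause was not tested. Depth limits PLEKHN1 most, with 9 to 33 estimated counts a library.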
